A study of Arabidopsis thaliana with 18 samples.

Results

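The 10 genes described here belong to the pathway through which Arabidopsis seedlings adjust growth to light and warmth, and they were chosen by name from the 32548 genes with a deposited expression value. They were the transcription factor genes PIF4, PIF5, PIF7, PIF1 and PIF3, their inhibitor HFR1, the photoreceptor gene PHYB, the auxin biosynthesis gene YUC8 and the auxin response genes IAA19 and IAA29. The choice was made with earlier results of these data known, so counts and medians over the 10 genes are descriptions. PHYTOCHROME INTERACTING FACTORS (PIFs) are basic helix-loop-helix proteins that bind G-box and related E-box motifs and drive elongation growth. Active phytochrome B binds PIFs in the light and leads to their removal, and warmth speeds the return of phytochrome B to its inactive form. Freed PIF4 and PIF7 are known to switch on YUC8 and, directly or through auxin, Aux/IAA genes such as IAA19 and IAA29, which is how mildly warm seedlings grow longer stems. A heat shock is a different and harsher treatment than the mild warmth in which this pathway is best known.

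RNA was measured in whole seedlings of Arabidopsis thaliana aged 7 days, grown on 1/2 MS plates at 22 °C with daily light for 16 h and dark for 8 h. The 6 groups held 3 libraries each: sant-null, hda6 and Col-0 seedlings exposed to 37 °C for 1 h, and sant-null, hda6 and Col-0 seedlings kept at 22 °C. Sant-null is labelled a quadruple mutant, and the series title concerns proteins with a SANT domain. Hda6 is labelled an EMS line, that is, a chemically mutagenised line, named for the histone deacetylase gene HDA6, and Col-0 is the wild type. The labels name no alleles and do not tell whether libraries of 1 group stem from separate plants or sowings. The p-values therefore measure only the spread between libraries, which may be technical.

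The libraries held an estimated 38.1 M to 53.6 M fragments or reads (M, mega), of which an estimated 18.4 M to 25.9 M were assigned to genes. The assigned share was taken per group from its mean FPKM and was not measured per library. Expression is given as FPKM, fragments per kilobase of transcript and per M sequenced, in a single deposited column per group that holds the authors' mean, so FPKM values carry no SD here. Changes are log2 fold changes with standard errors (SE) from the authors' deposited tables, called at an adjusted p under 0.05. Those tables and FPKM differ in scale: in Col-0, the log2 FPKM ratio of heated to unheated seedlings stood at -1.01 relative to the deposited log2 fold change of the same gene at the median. That offset was -1.05 in sant-null and -1.06 in hda6, and no larger than 0.09 in size in comparisons between genotypes. A gene unchanged by heat on the deposited scale thus had a lower FPKM at 37 °C, and heat changes are given on both scales. Calls and adjusted p given by FPKM or on the FPKM scale do not test FPKM values. They come from the deposited log2 fold changes shifted by the median offset of the comparison. These were retested with the deposited SE (Wald test, Benjamini-Hochberg adjustment), so they are not independent of the deposited calls. Centring on expressed genes is the same kind of shift, by the median of those genes. The HDA6 transcript itself was not called changed in the hda6 line, with 3.44 FPKM in hda6 and 3.96 FPKM in Col-0 at 37 °C, and 7.59 FPKM in hda6 and 6.83 FPKM in Col-0 at 22 °C. Its deposited log2 fold change in the authors' deposited tables was -0.20 ± 0.13 in heated seedlings (DESeq2 adjusted p = 0.351) and 0.10 ± 0.09 in unheated ones (adjusted p = 0.602), so the transcript does not check this label. All 3 shoot markers (summed FPKM 8420 to 9320 at 37 °C and 9660 to 10475 at 22 °C) were present, and the 3 root markers summed to 3.03 to 4.78 FPKM at 37 °C and 15.1 to 22.9 FPKM at 22 °C. The 2 seed and 2 flower markers summed to at most 1.70 FPKM, in unheated sant-null for seed. The part of the lower root markers in the heat results below was not tested. In whole seedlings, fewer cells of a type and less RNA per cell cannot be told apart.

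The stretch just before the transcription start is shown for 5 of the genes, because PIFs bind such sequence: PIF4 and PIF5, whose heat changes have opposite signs on the deposited scale, PHYB and YUC8, which fell, and IAA19, which holds the most motifs. Each window is the 300 bases upstream of the RefSeq start (assembly TAIR10.1), written 5′ to 3′ on the gene's strand. Capitals mark matches, on either strand, to the G-box CACGTG, the PIF-binding E-box CATGTG or the auxin response element TGTCTC. The windows lie at chr2:17885801-17886100 (plus strand) for PIF4, chr3:21830838-21831137 (minus strand) for PIF5, chr2:8139456-8139755 (plus strand) for PHYB, chr4:14192269-14192568 (plus strand) for YUC8 and chr3:5263701-5264000 (plus strand) for IAA19.
PIF4: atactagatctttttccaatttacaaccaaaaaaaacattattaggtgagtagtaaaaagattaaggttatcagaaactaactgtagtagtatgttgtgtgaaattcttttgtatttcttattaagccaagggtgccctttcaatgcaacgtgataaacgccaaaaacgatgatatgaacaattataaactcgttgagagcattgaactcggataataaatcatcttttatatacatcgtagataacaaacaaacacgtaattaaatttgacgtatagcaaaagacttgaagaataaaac
PIF5: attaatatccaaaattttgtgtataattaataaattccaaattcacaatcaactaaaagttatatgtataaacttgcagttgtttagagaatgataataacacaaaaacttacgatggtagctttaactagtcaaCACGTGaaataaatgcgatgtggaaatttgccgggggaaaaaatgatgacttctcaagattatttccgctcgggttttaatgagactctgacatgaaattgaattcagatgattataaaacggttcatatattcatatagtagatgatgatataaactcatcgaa
PHYB: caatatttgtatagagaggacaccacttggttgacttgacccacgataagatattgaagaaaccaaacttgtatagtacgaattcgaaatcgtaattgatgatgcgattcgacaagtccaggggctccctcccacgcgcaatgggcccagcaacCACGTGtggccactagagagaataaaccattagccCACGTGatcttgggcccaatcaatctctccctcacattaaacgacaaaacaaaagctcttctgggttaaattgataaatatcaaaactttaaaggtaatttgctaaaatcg
YUC8: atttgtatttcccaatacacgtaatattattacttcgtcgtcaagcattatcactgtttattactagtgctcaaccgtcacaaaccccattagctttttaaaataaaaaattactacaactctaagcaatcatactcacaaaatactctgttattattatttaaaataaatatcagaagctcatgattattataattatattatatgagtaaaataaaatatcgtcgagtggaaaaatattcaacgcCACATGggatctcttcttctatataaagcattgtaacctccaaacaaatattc
IAA19: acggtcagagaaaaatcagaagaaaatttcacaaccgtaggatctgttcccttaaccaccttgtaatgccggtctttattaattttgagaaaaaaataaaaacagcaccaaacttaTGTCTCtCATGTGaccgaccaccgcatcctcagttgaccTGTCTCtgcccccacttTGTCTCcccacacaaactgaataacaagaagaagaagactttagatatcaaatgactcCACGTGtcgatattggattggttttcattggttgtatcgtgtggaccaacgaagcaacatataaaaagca

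PHYB held 2 G-boxes, at -146 to -141 and -111 to -106 from the start, and PIF5 held 1 at -165 to -160. IAA19 held a G-box at -70 to -65, an E-box at -177 to -172 and 3 auxin response elements, which begin at -184, -145 and -128. YUC8 held the E-box on the opposite strand, CACATG, at -53 to -48. PIF3, not shown, held the auxin response element on the opposite strand, GAGACA, at -214 to -209. The windows of PIF4, PIF7, PIF1, HFR1 and IAA29 held none of these letters, and none of the 10 held the heat shock element core GAANNTTC. Thus 3 of 10 genes had a G-box, 2 the E-box and 2 the auxin response element. Among 27431 windows of the same length, those of protein-coding nuclear genes, 7.09% held the G-box and 13.1% the E-box. The auxin response element was held by 13.0% and the heat shock element core by 11.5%. These matches are letters in a window and do not show binding.

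In unheated Col-0 the members ranged from 1.38 to 31.3 FPKM, with PIF5 and PIF4 at the top. The order there was PIF5 (31.3 FPKM), PIF4 (14.5), PHYB (10.6), PIF7 (8.46), PIF1 (7.00), IAA19 (6.54), PIF3 (4.48), YUC8 (2.29), HFR1 (1.49) and IAA29 (1.38). PIF5 was among the 4.31% most highly expressed genes of that group. The order was the same in sant-null at 22 °C, while in hda6 at 22 °C IAA19 stood above PIF1 and HFR1 above YUC8. After 1 h at 37 °C PIF4 led in all 3 genotypes, with 15.9 FPKM in sant-null, 15.6 in hda6 and 17.2 in Col-0. YUC8 and IAA29 were last in all 3 heated groups, at 0.142 FPKM or below. With no spread per group, the order of neighbours could not be tested.

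**Figure D1:**
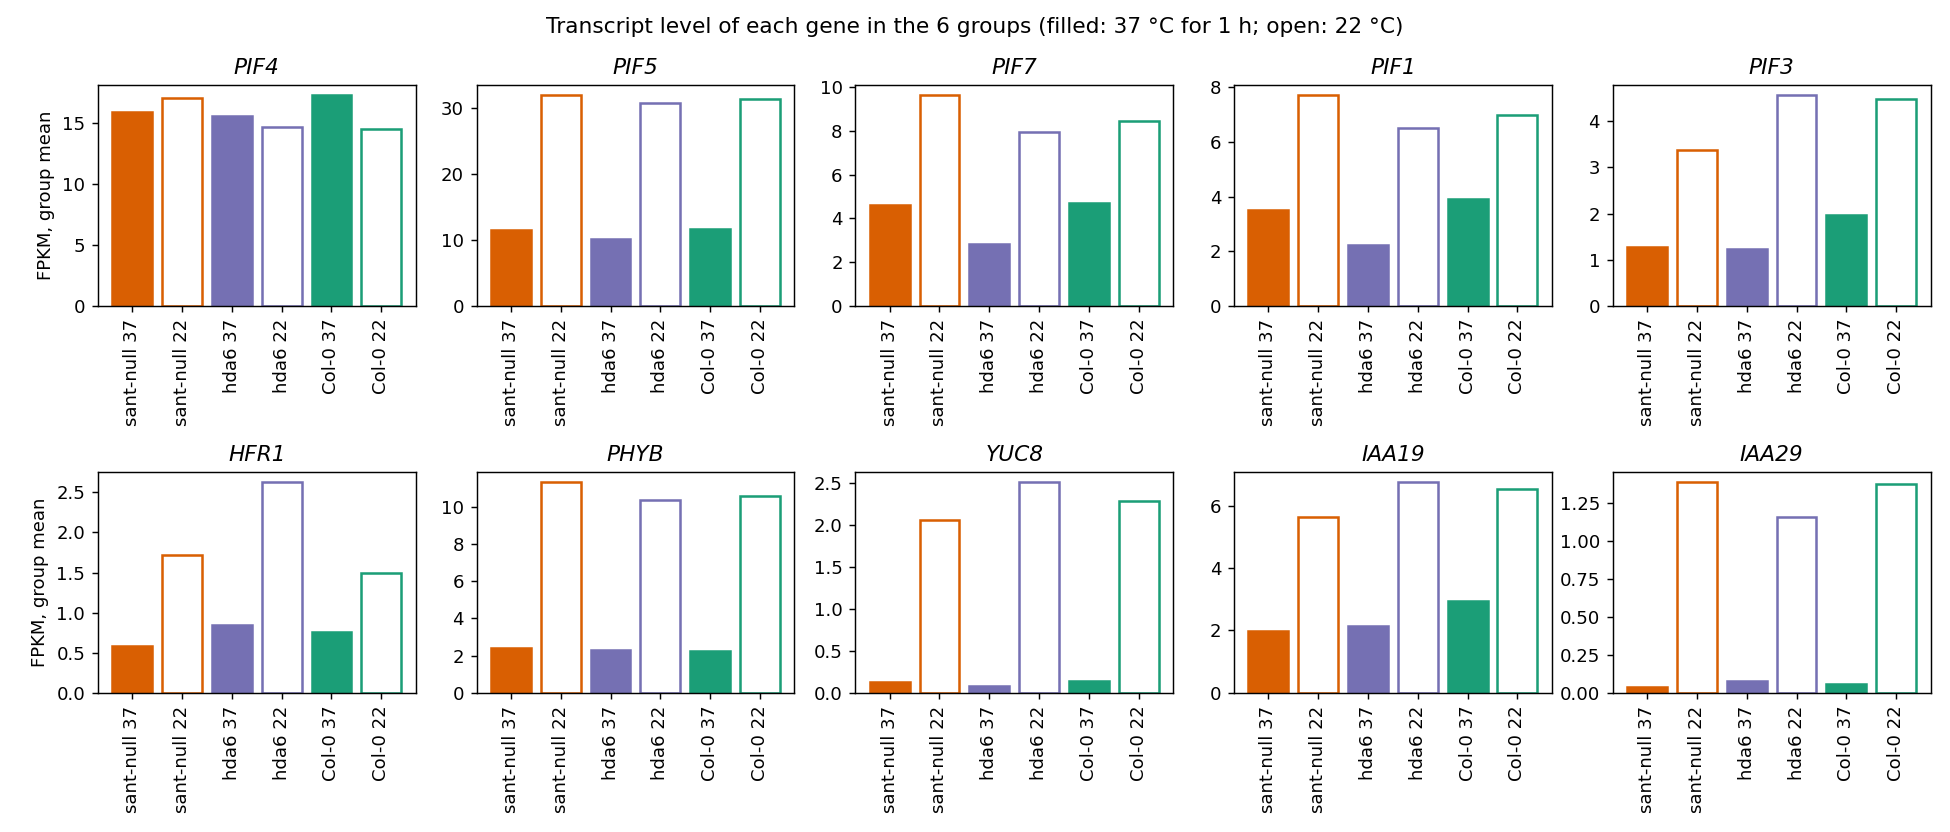
Bars give the FPKM of each of the 10 genes in the 6 groups on linear axes from 0 (the authors' mean over 3 libraries, no error available), filled for 37 °C and open for 22 °C. PIF4 stays between 14.5 and 17.2 FPKM in every group, PIF5 and PHYB are lower in all heated groups, and YUC8 and IAA29 lie at 0.142 FPKM or below at 37 °C.

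PIF4 (AT2G43010, chr2:17886101-17889087, plus strand), the main PIF of warm growth, was the only member called higher after heat. It had 15.9 FPKM in heated against 17.0 in unheated sant-null, 15.6 against 14.7 in hda6, and 17.2 against 14.5 in Col-0. On the deposited scale these levels were higher by 1.26 ± 0.06 (log2, SE) in Col-0, per the authors' deposited table (adjusted p = 8.27e-92). Combining the authors' deposited tables gave 0.96 ± 0.08 in sant-null (adjusted p = 2.84e-31) and 1.14 ± 0.08 in hda6 (adjusted p = 1.81e-42). On the FPKM scale the same contrasts were -0.09 in sant-null, 0.08 in hda6 and 0.25 in Col-0, so the direction in sant-null depends on the scale and the call in hda6 is lost (adjusted p = 0.348). PIF4 held a group mean between 14.5 and 17.2 FPKM throughout.

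PHYB (AT2G18790, chr2:8139756-8144461, plus strand), which encodes the red-light and temperature sensor that restrains PIFs, fell in every genotype on both scales. It had 2.42 FPKM in heated against 11.3 in unheated sant-null, 2.29 against 10.3 in hda6 and 2.25 against 10.6 in Col-0. The 3 heated values lie close together and far below the 3 unheated ones. Its deposited log2 fold change was -1.23 ± 0.08 in Col-0 in the authors' deposited table (adjusted p = 8.55e-53). The values combined from these tables were -1.17 ± 0.11 in sant-null (adjusted p = 5.68e-24) and -1.11 ± 0.14 in hda6 (adjusted p = 8.88e-15).

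PIF5 (AT3G59060, listed by RefSeq as PIL6, chr3:21827905-21830837, minus strand), a close relative of PIF4, fell in every genotype on both scales. Its level was 11.5 FPKM in heated against 31.8 in unheated sant-null, 10.1 against 30.6 in hda6 and 11.7 against 31.3 in Col-0. The deposited log2 fold change in Col-0 was -0.41 ± 0.06 (authors' deposited table, adjusted p = 3.96e-10), with combined values of -0.41 ± 0.08 in sant-null (adjusted p = 2.42e-06) and -0.54 ± 0.09 in hda6 (adjusted p = 2.17e-09). PIF4 was below PIF5 in each unheated group and above it in each heated group. That order is a comparison per length within each group and does not depend on the scale between temperatures.

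YUC8 (AT4G28720, chr4:14192569-14194302, plus strand), a flavin monooxygenase of the last step of auxin synthesis and a known PIF4 target, fell steeply. It had 0.134 FPKM in heated against 2.05 in unheated sant-null, 0.0811 against 2.51 in hda6 and 0.142 against 2.29 in Col-0. The drop in Col-0 was -3.00 ± 0.34 on the log2 scale of the authors' deposited table (adjusted p = 1.38e-17). Combined values were -2.88 ± 0.70 in sant-null (adjusted p = 1.25e-04) and -3.89 ± 0.79 in hda6 (adjusted p = 2.96e-06). Heated libraries held an estimated 10.5 YUC8 fragments each in sant-null, 5.94 in hda6 and 11.1 in Col-0, so the size of the drop is known less well than its direction.

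IAA29 (AT4G32280, chr4:15583332-15584903, plus strand), a repressor of auxin response that is itself induced by auxin and by PIFs, fell as well. Its FPKM was 0.0377 in heated against 1.39 in unheated sant-null, 0.0781 against 1.16 in hda6 and 0.0603 against 1.38 in Col-0. The authors' deposited table gave -3.55 ± 0.57 for Col-0 (adjusted p = 2.25e-09). Combined values were -4.16 ± 1.44 in sant-null (adjusted p = 0.00885) and -2.85 ± 1.20 in hda6 (adjusted p = 0.0332). The hda6 call is lost when the errors of all tables are summed (adjusted p = 0.0650). Heated libraries held an estimated 2.19 to 4.23 IAA29 fragments each, near the limit of detection, which leaves its size of change poorly known in every genotype.

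The remaining 5 members were not called in heated Col-0 on the deposited scale, while their FPKM was lower than in unheated Col-0. PIF7 (AT5G61270, chr5:24638491-24640765, minus strand), the factor of shade and daytime warmth, had 4.62 FPKM in heated against 9.61 in unheated sant-null, 2.82 against 7.92 in hda6 and 4.72 against 8.46 in Col-0. PIF1 (AT2G20180, listed by RefSeq as PIL5, chr2:8704024-8707009, minus strand), best known for holding back seed germination in the dark, had 3.53 FPKM in heated against 7.70 in unheated sant-null, 2.22 against 6.51 in hda6 and 3.94 against 7.00 in Col-0. PIF3 (AT1G09530, chr1:3075768-3079654, plus strand), the founding PIF of dark growth, had 1.28 FPKM in heated against 3.39 in unheated sant-null, 1.25 against 4.56 in hda6 and 1.98 against 4.48 in Col-0. For all 3 factors the lowest of the 6 group means was that of heated hda6. Their log2 fold changes in Col-0, from the authors' deposited table, were 0.17 ± 0.10 for PIF7, 0.17 ± 0.10 for PIF1 and -0.17 ± 0.11 for PIF3, none called, with adjusted p from 0.129 to 0.208. Judged by FPKM, PIF7 and PIF1 take the opposite sign in Col-0.

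HFR1 (AT1G02340, chr1:465616-467880, minus strand), an atypical helix-loop-helix protein that ties up PIFs in inactive dimers, had 0.590 FPKM in heated against 1.72 in unheated sant-null, 0.851 against 2.62 in hda6 and 0.758 against 1.49 in Col-0. IAA19 (AT3G15540, chr3:5264001-5265695, plus strand), an auxin-induced Aux/IAA repressor linked to hypocotyl bending and growth, had 1.98 FPKM in heated against 5.64 in unheated sant-null, 2.15 against 6.75 in hda6 and 2.94 against 6.54 in Col-0. Neither was called for heat in Col-0 in the authors' deposited table, at 0.02 ± 0.25 for HFR1 (adjusted p = 0.953) and -0.14 ± 0.16 for IAA19 (adjusted p = 0.467). HFR1 changes sign in Col-0 on the FPKM scale.

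In all, 1 of the 10 members was called higher and 4 lower in heated Col-0 on the deposited scale, where 30.1% of all tested genes were called higher and 29.9% lower. The median log2 fold change was -0.15 over the members and -0.09 over all tested genes. In sant-null the count was again 1 higher and 4 lower, beside 28.5% and 23.8% of all genes. In hda6 it was 1 higher and 8 lower, beside 28.9% and 25.2% of all genes, with a median of -0.58 over the members and -0.06 over all genes. The 4 members called lower in hda6 beside those called in Col-0 were PIF3 (-0.81 ± 0.20), PIF1 (-0.49 ± 0.16), IAA19 (-0.59 ± 0.24) and PIF7 (-0.43 ± 0.15). Of these, the IAA19 call is lost when the errors of all tables are summed. Whether these 4 changes differ from those in Col-0 is tested below by the interaction. Judged by FPKM, the counts were 0 higher and 9 lower in sant-null, 0 higher and 9 lower in hda6, and 1 higher and 9 lower in Col-0. On that scale most tested genes were lower. Sant-null had 5.07% of all genes called higher and 71.9% lower, hda6 4.57% higher and 72.1% lower, and Col-0 6.25% higher and 72.5% lower. A count of members lower by FPKM is to be read against those shares.

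**Figure D2:**
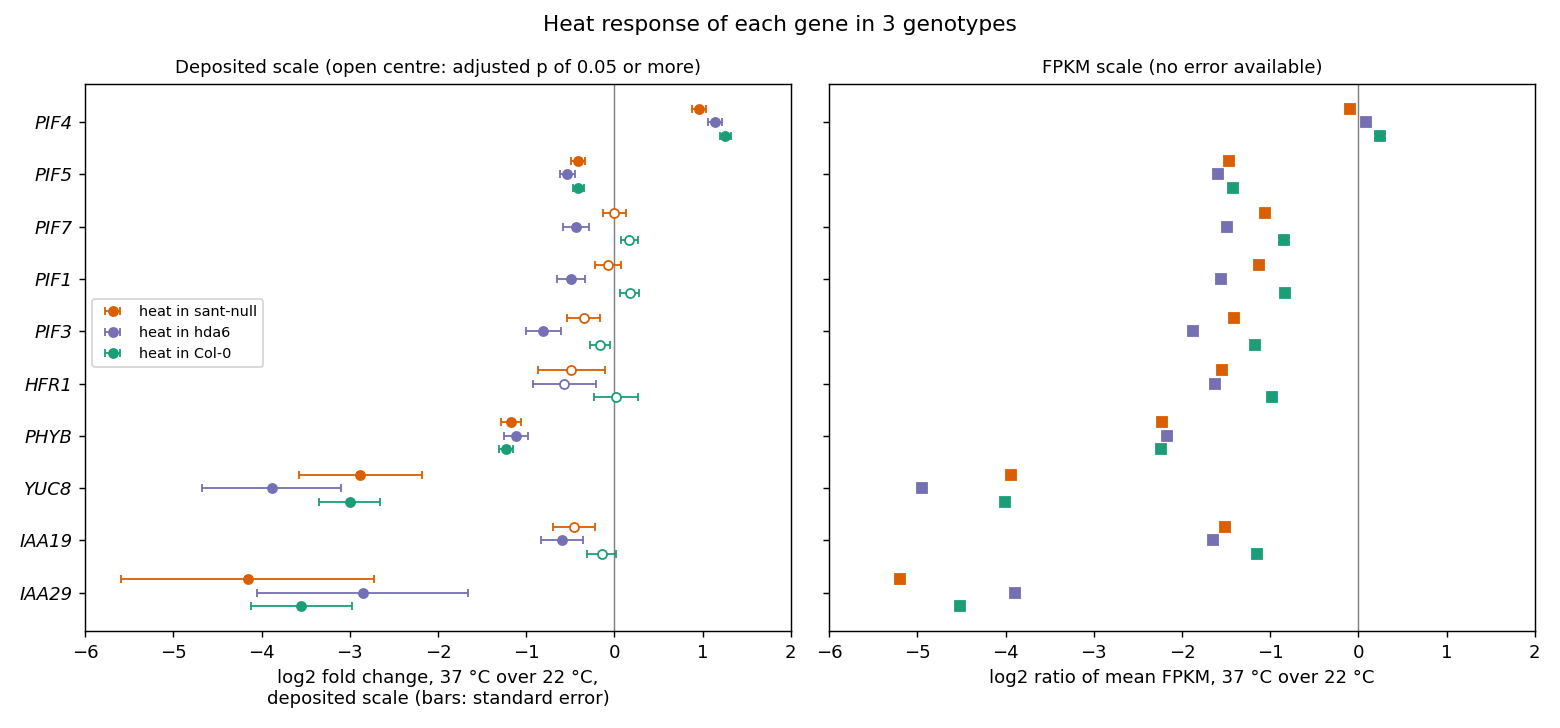
Log2 fold change of each gene at 37 °C over 22 °C in sant-null, hda6 and Col-0, on the deposited scale with its standard error (left, open centre where the adjusted p is 0.05 or more) and as the ratio of mean FPKM (right). On the deposited scale PIF4 lies above 0 in all 3 genotypes, and PIF5, PHYB, YUC8 and IAA29 lie below 0 in all 3; every FPKM ratio sits about 1 log2 unit lower, with PIF4 between -0.09 and 0.25.

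PIF3 was lower in sant-null than in Col-0 at both temperatures. PIF3 had 1.28 FPKM in sant-null and 1.98 in Col-0 at 37 °C, and 3.39 FPKM in sant-null and 4.48 in Col-0 at 22 °C. The log2 fold changes in the authors' deposited tables were -0.67 ± 0.16 in the heat (adjusted p = 5.01e-04) and -0.49 ± 0.10 without it (adjusted p = 3.84e-05). IAA19 was also lower in heated sant-null, at 1.98 FPKM against 2.94 in heated Col-0, with a change of -0.61 ± 0.21 in the authors' deposited table (adjusted p = 0.0375). That call is lost on the FPKM scale (adjusted p = 0.0631), and at 22 °C IAA19 was at -0.30 ± 0.12 (adjusted p = 0.0794).

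PIF3 and IAA19 were the only members called in sant-null against Col-0. At 37 °C that is 0 of 10 higher and 2 lower, where 4.72% of all tested genes were called higher and 4.05% lower. At 22 °C it is 0 higher and 1 lower, where the shares were 8.82% and 8.98%. At an unadjusted DESeq2 p under 0.05 the counts were 0 higher and 3 lower at 37 °C, beside 9.69% and 8.80% of all tested genes, and 1 higher and 2 lower at 22 °C, beside 14.0% and 13.9%. PIF4 was just outside the threshold at 22 °C, with 17.0 FPKM in sant-null and 14.5 in Col-0 and a log2 fold change of 0.14 ± 0.05 in the authors' deposited table (adjusted p = 0.0511). It was called higher on the FPKM scale (0.23, adjusted p = 3.69e-04), as were 12.9% of all genes, on a scale centred on expressed genes (0.17, adjusted p = 0.0176) and with only genes of at least 1 FPKM tested (adjusted p = 0.0448). PHYB was not called in sant-null, at 0.01 with a 95% interval of -0.10 to 0.12 at 22 °C and 0.06 with an interval of -0.13 to 0.26 at 37 °C.

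In hda6, PIF7, PIF1, PIF3 and PIF5 were lower than in Col-0 at 37 °C. PIF7 had 2.82 FPKM in heated hda6 and 4.72 in heated Col-0, a log2 fold change of -0.74 ± 0.12 in the authors' deposited table (adjusted p = 2.84e-08). PIF1 had 2.22 FPKM in hda6 and 3.94 in Col-0, with -0.82 ± 0.14 in the same authors' deposited table (adjusted p = 4.28e-08). PIF3 had 1.25 FPKM in hda6 and 1.98 in Col-0, at -0.67 ± 0.17 in the authors' deposited table (adjusted p = 0.00142). PIF5 differed less, with 10.1 FPKM in hda6 and 11.7 in Col-0 and a change of -0.21 ± 0.07 in the authors' deposited table (adjusted p = 0.0198). None of the 4 was called at 22 °C, where their log2 fold changes ran from -0.16 to -0.03. PIF4 was at -0.15 ± 0.06 in heated hda6 (authors' deposited table, adjusted p = 0.0612), and was called lower when centred on expressed genes (adjusted p = 0.0470) or with genes of at least 1 FPKM (adjusted p = 0.0432).

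HFR1 was the single member called in unheated hda6, and it was higher. It had 2.62 FPKM in hda6 and 1.49 in Col-0 at 22 °C, a log2 fold change of 0.77 ± 0.17 in the authors' deposited table (adjusted p = 1.81e-04). At 37 °C it had 0.851 FPKM in hda6 and 0.758 in Col-0, at 0.18 ± 0.31 (adjusted p = 0.774), and its interaction was not called (adjusted p = 0.458). The counts in hda6 were 0 of 10 higher and 4 lower at 37 °C, beside 9.06% and 9.41% of all tested genes, and 1 higher and 0 lower at 22 °C, beside 6.10% and 4.50%. At an unadjusted DESeq2 p under 0.05 they were 0 and 6 at 37 °C, beside 14.3% and 14.5% of all genes, and 1 and 0 at 22 °C, beside 11.3% and 9.72%. The median over the members at 37 °C was -0.33, against 0.01 over all tested genes.

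The lower levels of PIF7 and PIF1 after heat also set hda6 apart from sant-null. Heated sant-null had 4.62 FPKM of PIF7 and heated hda6 2.82, a difference of 0.67 ± 0.16 combined from the authors' deposited tables (adjusted p = 0.00134). For PIF1 the levels were 3.53 FPKM in sant-null and 2.22 in hda6, a difference of 0.62 ± 0.18 (adjusted p = 0.0165). These were 2 of 10 higher and 0 lower, beside 2.44% and 2.03% of all genes. PIF3, low in both heated mutants, differed between them by -0.01, with a 95% interval of -0.47 to 0.45. At 22 °C PIF3 was the single call, with 3.39 FPKM in sant-null and 4.56 in hda6 and a difference of -0.47 ± 0.14 (adjusted p = 0.0402), lost on the FPKM scale (adjusted p = 0.0834). That is 0 higher and 1 lower, beside 1.08% and 2.00% of all genes. At an unadjusted Wald p under 0.05 the counts were 2 higher and 0 lower at 37 °C, beside 6.39% and 5.56% of all genes, and 2 higher and 2 lower at 22 °C, beside 4.49% and 5.93%.

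**Figure D3:**
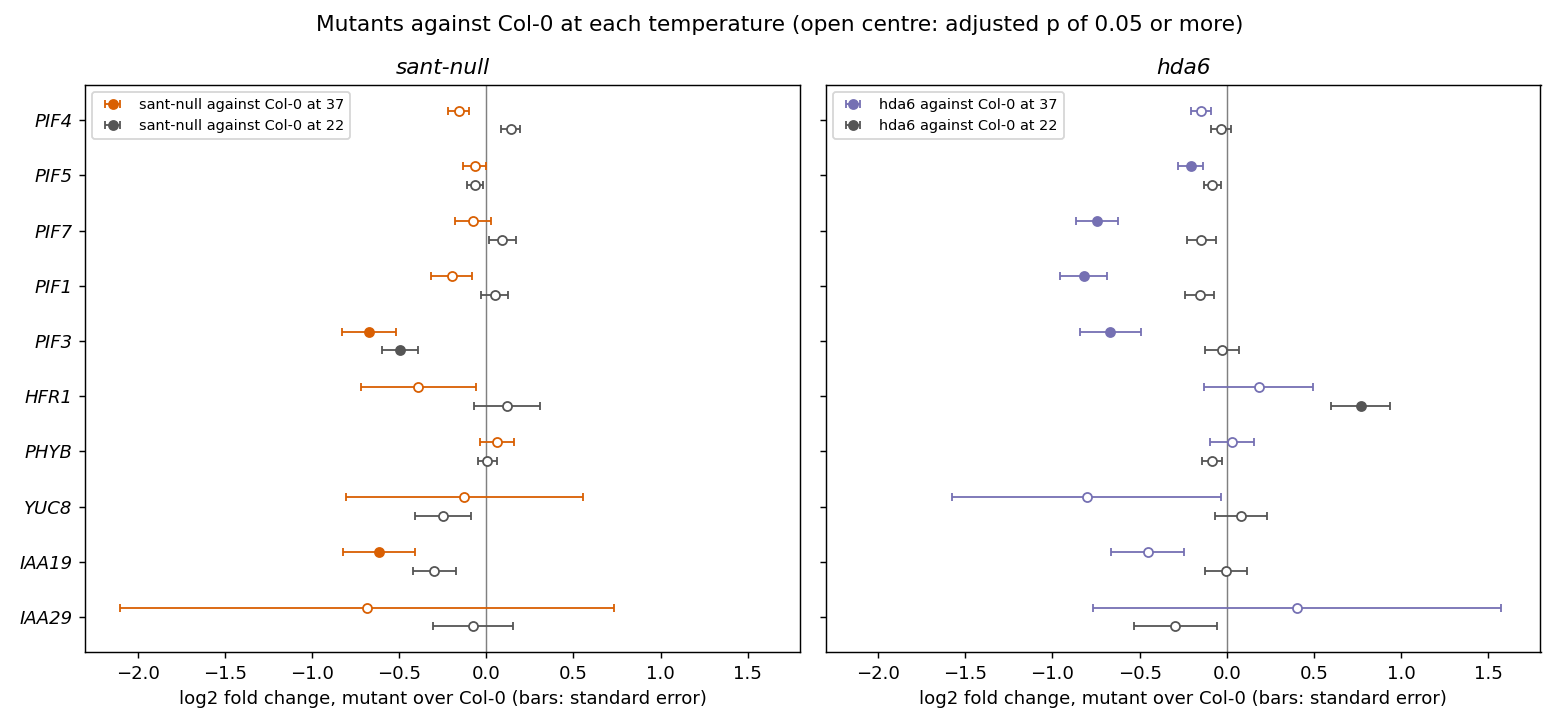
Log2 fold change of each gene in sant-null (left) and hda6 (right) against Col-0 at 37 °C and at 22 °C, with bars of 1 standard error and an open centre where the adjusted p is 0.05 or more. PIF3 lies below 0 at both temperatures in sant-null, PIF7, PIF1 and PIF3 lie at -0.82 to -0.67 in hda6 at 37 °C and, not called, at -0.16 to -0.03 at 22 °C, and HFR1 lies above 0 in unheated hda6.

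The interaction, the heat change in a mutant minus that in Col-0, separates a different heat response from a level that differs at both temperatures. Its error combines deposited tables that share no library. In hda6 the heat change was more negative than in Col-0 for PIF1 (-0.66 ± 0.16, adjusted p = 0.00150), PIF7 (-0.60 ± 0.15, adjusted p = 0.00221) and PIF3 (-0.64 ± 0.20, adjusted p = 0.0307). Those 3 of 10 were lower and 0 were higher, beside 3.32% and 2.26% of all tested genes. The members' median was -0.52 and that of all tested genes 0.01. PIF4 at -0.12 ± 0.08 and PIF5 at -0.12 ± 0.09 were not called in hda6 (adjusted p = 0.572 and 0.550). Nor was IAA19, at -0.45 ± 0.24 (adjusted p = 0.366), although its fall after heat was called in hda6 and not in Col-0.

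In sant-null the single called interaction was that of PIF4, at -0.30 ± 0.08 (adjusted p = 0.0287). Its mean FPKM was above that of Col-0 at 22 °C and below it at 37 °C, and neither difference alone was called on the deposited scale. This is 0 of 10 higher and 1 lower, beside 0.547% and 0.374% of all tested genes. PIF3 did not show an interaction in sant-null (-0.18 ± 0.19, adjusted p = 0.920), in which it was lower at both temperatures. YUC8 and IAA29 could not be resolved in either mutant: the 95% interval of the YUC8 interaction ran from -1.25 to 1.49 in sant-null and from -2.42 to 0.66 in hda6. For PHYB the interaction was called in neither mutant, with intervals from -0.17 to 0.28 in sant-null and from -0.15 to 0.39 in hda6. The interval in hda6 reaches beyond 0.30, the size of the PIF4 difference called in sant-null. The scale between temperatures cancels here, and the 4 calls held on the FPKM scale. At an unadjusted Wald p under 0.05 the counts were also 0 higher and 1 lower in sant-null, beside 4.82% and 3.46% of all genes, and 0 higher and 3 lower in hda6, beside 7.20% and 8.09%.

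**Figure D4:**
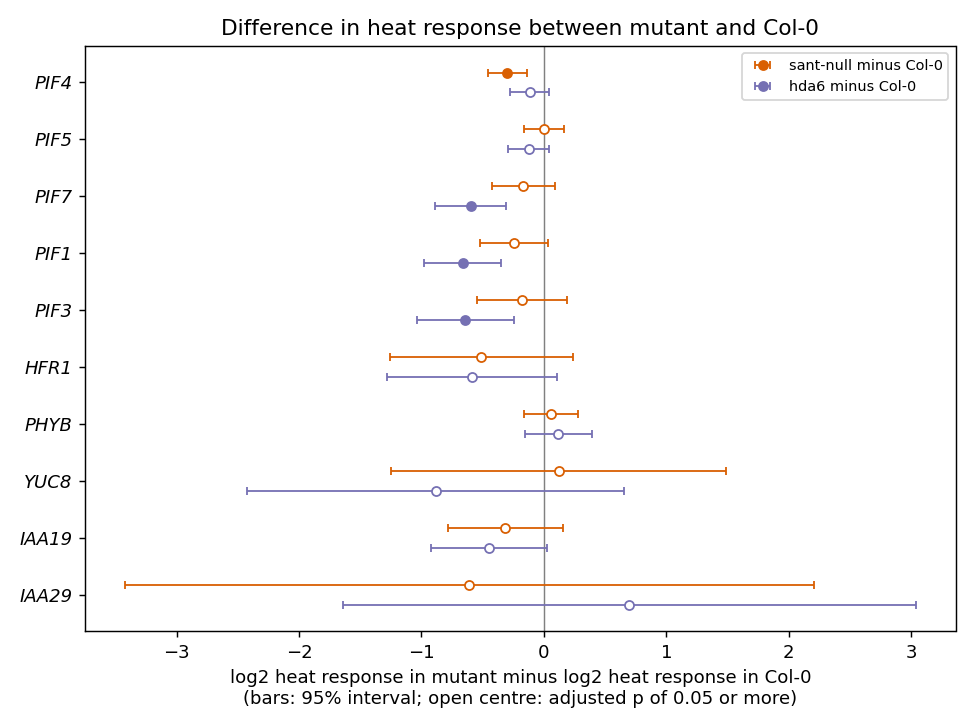
Interaction of genotype and heat for each gene (heat change in sant-null or hda6 minus heat change in Col-0, log2) with 95% intervals and an open centre where the adjusted p is 0.05 or more. In hda6, PIF7, PIF1 and PIF3 lie between -0.66 and -0.60, and in sant-null PIF4 lies at -0.30.

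PIF7 and PIF1 each overlap a gene on the other strand, and whether reads were counted by strand is not stated in the labels, so reads of the pair cannot be told apart. AT5G61260 overlaps PIF7 by 318 bases, had at most 0.552 FPKM in any group and was called in no comparison. AT2G20170 overlaps PIF1 by 334 bases and is listed at 0 in all 6 groups. The remaining 8 members overlap no other annotated gene.

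The surrounding pathway was followed in 7 lists with 95 genes. The lists were chosen with earlier results of these data known, so their counts and medians are descriptions. Each count for heat in Col-0 stands against all tested genes, of which 30.1% were called higher and 29.9% lower on the deposited scale, with a median of -0.09, and 6.25% higher and 72.5% lower by FPKM. Among the PIF relatives and helix-loop-helix cofactors, 7 of 10 tested genes fell after heat in Col-0 and 0 rose, with a median log2 fold change of -1.49, against -0.09 and shares of 29.9% lower and 30.1% higher over all genes. PRE1, an HLH protein that promotes elongation, was at 0.0697 FPKM in heated and 2.16 in unheated Col-0 (-3.94 ± 0.61 in the authors' deposited table). PAR1 (-3.41 ± 0.39), an inhibitor of shade growth that dimerises with PIFs, and HBI1 (-2.20 ± 0.10), a growth-promoting factor, fell as well in the authors' deposited table. By FPKM, 8 of the 10 were called lower, where 72.5% of all genes were. SPT, a bHLH relative of PIFs that limits growth in the cool, was higher in sant-null at both temperatures. It had 0.985 FPKM in sant-null against 0.465 in Col-0 at 37 °C and 2.38 against 1.06 at 22 °C. The authors' deposited tables gave 1.04 ± 0.29 in the heat (adjusted p = 0.00618) and 1.08 ± 0.19 without it (adjusted p = 2.41e-07) for SPT. SPT was also higher in unheated hda6, at 0.61 ± 0.21 in the authors' deposited table (adjusted p = 0.0324).

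Of the 7 other photoreceptor genes, 4 fell and 3 rose on the deposited scale after heat in Col-0, and all 7 were called lower by FPKM. Over all genes 29.9% fell and 30.1% rose on the deposited scale, and 72.5% were lower by FPKM. PHYE (-1.06 ± 0.11), PHYC (-1.06 ± 0.11) and PHYD (-0.75 ± 0.16), which encode the other light-stable phytochromes, fell like PHYB in the authors' deposited table. PHYA, the far-red sensor, had 10.8 FPKM in heated and 12.9 in unheated Col-0. Its change of 0.76 ± 0.06 in the authors' deposited table turns to -0.25 on the FPKM scale. In heated hda6 PHYA had 9.00 FPKM against 10.8 in heated Col-0, and its interaction in hda6 was -0.36 ± 0.08 (adjusted p = 2.14e-04, combined from the authors' deposited tables).

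Of 15 genes that act upstream of PIF4, 4 were higher and 6 lower in heated Col-0, near the 30.1% and 29.9% of all genes, with a median of -0.07 against -0.09. LUX, an evening-complex member that represses PIF4, had 1.74 FPKM in heated and 1.44 in unheated Col-0, at 1.28 ± 0.13 in the authors' deposited table. TCP17 (-1.87 ± 0.52), TCP5 (-1.78 ± 0.27) and TCP13 (-1.26 ± 0.22), factors known to raise PIF4 activity in warmth, fell in the authors' deposited table. By FPKM, 1 of the 15 was called higher and 13 were called lower, beside 6.25% and 72.5% of all genes. In heated hda6, 4 of the 15 were lower than in Col-0 and 0 higher, beside 9.41% and 9.06% of all genes: BES1, BZR1, SPA1 and ELF3. The interaction in hda6 was called for SPA1 alone, at -0.35 ± 0.09 (adjusted p = 0.00350, combined from the authors' deposited tables). That is 1 of 15 lower and 0 higher, beside 3.32% and 2.26% of all genes. BES1, a brassinosteroid response factor, was lower in each mutant at each temperature, at -0.36 in heated and -0.31 in unheated hda6 and -0.30 in heated and -0.17 in unheated sant-null in the authors' deposited tables; the last call is lost on the FPKM scale.

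Auxin synthesis genes mostly fell with YUC8. Of 12 tested, 9 were lower and 1 higher in heated Col-0, beside 29.9% and 30.1% of all genes, and their median was -1.26 against -0.09. By FPKM 10 were called lower and 0 higher, beside 72.5% and 6.25% of all genes. CYP79B2, which makes indole-3-acetaldoxime from tryptophan, had 1.24 FPKM in heated and 18.3 in unheated Col-0, a change of -2.86 ± 0.12 in the authors' deposited table. YUC2 (-1.54 ± 0.31), YUC6 (-1.38 ± 0.27) and YUC3 (-1.13 ± 0.35) fell in the authors' deposited table. YUC9 was the exception on the deposited scale, at 1.41 ± 0.30, with 0.817 FPKM in heated and 0.626 in unheated Col-0. In heated hda6 YUC9 had 0.333 FPKM against 0.817 in heated Col-0, a change of -1.30 ± 0.37 in the authors' deposited table (adjusted p = 0.00371), with an interaction that was not called (adjusted p = 0.380).

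The 27 other Aux/IAA genes, repressors of auxin response like IAA19 and IAA29, moved in both directions on the deposited scale. In heated Col-0, 4 were higher and 9 lower, beside 30.1% and 29.9% of all genes, and the median of -0.08 was close to the -0.09 of all genes. By FPKM 0 were called higher and 21 lower, beside 6.25% and 72.5%. IAA4 had 2.02 FPKM in heated and 22.1 in unheated Col-0 (-2.43 ± 0.13 in the authors' deposited table), whereas IAA17 had 41.2 and 46.9 FPKM in the same order and rose only on the deposited scale (0.82 ± 0.05). In unheated sant-null 10 of 27 were lower than in Col-0 and 1, IAA34, higher, beside the 8.98% and 8.82% of all genes. The 10 were small changes, from -0.38 for IAA2 to -0.13 for IAA9, and by FPKM 3 were called lower and 3 higher, beside 3.72% and 12.9% of all genes. At 37 °C IAA7 was the single gene lower in sant-null. That is 1 of 26 tested lower and 0 higher, near the 4.05% of all genes called lower and beside 4.72% higher. IAA33 is listed at 0 in heated hda6, against 0.160 FPKM in heated Col-0, and no fold is given for it.

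Auxin receptors and activating auxin response factors were mostly lower after heat, and several were lower in both heated mutants than in heated Col-0. In heated Col-0, 9 of 11 were lower and 1 higher, beside 29.9% and 30.1% of all genes, with a median of -1.03 against -0.09. By FPKM all 11 were called lower, as were 72.5% of all genes. ARF8 (-1.71 ± 0.11), ARF6 (-1.31 ± 0.10), AFB5 (-1.30 ± 0.12) and ARF19 (-1.20 ± 0.16) showed the largest falls in the authors' deposited table. In heated hda6, 5 of 11 were lower than in heated Col-0 and 0 higher, beside 9.41% and 9.06% of all genes. These were the receptor genes AFB3 (-0.91 ± 0.18), AFB2 (-0.80 ± 0.14) and AFB4 (-0.57 ± 0.17) and the response factor genes ARF6 (-0.64 ± 0.16) and ARF7 (-0.64 ± 0.11), per the authors' deposited table. In heated sant-null 3 of the 11 were lower and 0 higher, beside 4.05% and 4.72% of all genes: ARF6 (-0.58 ± 0.16), AFB2 (-0.47 ± 0.13) and ARF7 (-0.34 ± 0.10) in the authors' deposited table. In hda6 the interaction was called for AFB3, AFB2, ARF7 and ARF6, at -0.76 to -0.60. That is 4 of 11 lower and 0 higher, beside 3.32% and 2.26% of all tested genes. The median interaction in hda6 over the 11 genes was -0.47, against 0.01 over all tested genes. No interaction in hda6 was called among the PIF relatives or the auxin synthesis genes.

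Of 11 growth genes known to be induced by warmth or shade, 7 were lower and 1 higher in heated Col-0, beside 29.9% and 30.1% of all genes, with a median of -1.41 against -0.09. The gene called higher was XTH15, a cell wall enzyme gene, at 0.66 ± 0.16 in the authors' deposited table (adjusted p = 7.18e-05), and HB4, FHL and ARL were not called. By FPKM all 11 were called lower, as were 72.5% of all genes. EXPA8, a cell-wall-loosening expansin, had 3.49 FPKM in heated and 49.1 in unheated Col-0, a change of -2.82 ± 0.10 in the authors' deposited table. LNG2 (-2.29 ± 0.12) and LNG1 (-2.12 ± 0.16), which promote lengthwise cell growth, and HB-2 (-1.61 ± 0.27), a homeobox gene of shade growth, fell in the authors' deposited table. EXPA8 was higher in heated hda6 than in heated Col-0, at 5.23 against 3.49 FPKM (0.59 ± 0.14 in the authors' deposited table, adjusted p = 4.28e-04). Its interaction in hda6 was 0.48 ± 0.15 (adjusted p = 0.0387, combined from the authors' deposited tables), a call lost on the FPKM scale and when centred on expressed genes. XTH15 was higher in hda6 than in Col-0 at both temperatures, at 0.55 ± 0.16 in heated (adjusted p = 0.00462) and 0.59 ± 0.12 in unheated seedlings (adjusted p = 1.93e-05) in the authors' deposited tables.

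**Figure D5:**
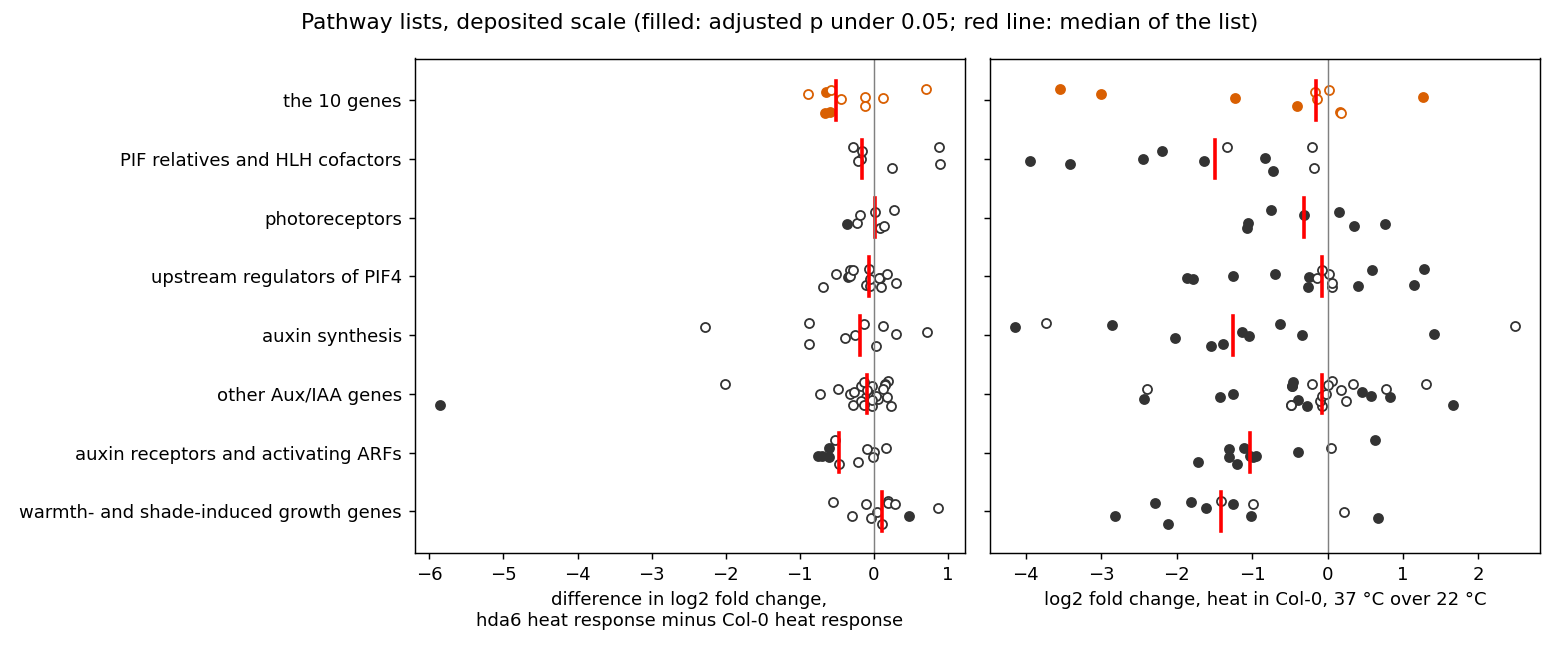
Each point is a tested gene of the 10 described here or of the 7 pathway lists, filled where the adjusted p is under 0.05, with a red line at the list median: left, heat change in hda6 minus heat change in Col-0 (log2), and right, heat change in Col-0 (log2, deposited scale). In heated Col-0 the growth, auxin synthesis and receptor lists have medians of -1.41, -1.26 and -1.03, and in the hda6 difference the receptor list has a median of -0.47; the far-left point is IAA33, listed at 0 in heated hda6, where its fitted value is no measure of size.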

How the data were processed

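Messenger RNA of 18 seedling libraries was sequenced. The submitters' processing notes list the build TAIR10 and the tools DESeq2 1.30.1, featureCounts 2.0.1, HISAT2 2.2.1 and CASAVA, by which the authors made the deposited values. How these were set, and how strand and multiply mapped reads were treated, is not stated there. The authors deposited FPKM with a single column per group, taken as the group mean, and 5 comparison tables. In those tables the authors' baseMean is a signal, a mean normalised level over the libraries compared. The deposited log2 fold change carries a standard error, and the deposited Wald score equalled their quotient within 1.34e-06. The p-value and adjusted p that the authors deposited from DESeq2 were used as they stand, over 20790 to 23447 tested genes. The total of each library was worked out from the smallest steps of the FPKM values. It is not stated whether it counts reads or fragments.

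A further 6 comparisons were computed with Wald tests and Benjamini-Hochberg adjustment over all genes with an adjusted p in both tables: heat within each mutant, the interactions of genotype and heat, and sant-null against hda6. The interaction combines tables with no shared library. The errors of the other 4 include the spread of Col-0 libraries, which cancels from the value, and are therefore upper bounds. The code was tested on simulated data. All 32548 gene IDs matched RefSeq TAIR10.1, from which names, positions and sequences come. Coordinates are those of TAIR10.1, since the deposited files hold none.

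The members and 7 pathway lists were chosen with earlier results of these data known, and 2 of 97 list entries were dropped because RefSeq does not carry their symbol. Named list genes were drawn from the 4 of each list with the largest called heat change in Col-0 among genes of at least 1 FPKM in some group. Any called at least 2-fold in a mutant could also be named. Not every gene that met this rule is named above: PAR2 (-1.64 ± 0.24 for heat in Col-0) is among those left out. List genes called in a mutant by smaller changes were named after their values were seen. All 10 members passed the tables' low-value filter in every comparison. Python 3.11.15, pandas 2.3.3, numpy 2.4.6, scipy 1.17.1 and matplotlib 3.10.9 were used.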

Additional observations from a re-analysis of the deposited data

Results flagged for a closer look

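In hda6, the heat response of 3 members differed from that in Col-0 by a Wald test of the difference itself, adjusted over all tested genes. The differences in log2 heat change, hda6 minus Col-0, were -0.66 for PIF1, -0.64 for PIF3 and -0.60 for PIF7. In sant-null the heat response of PIF4 differed from that in Col-0 in the same kind of test, by -0.30. For PIF1, PIF3 and PIF7 the difference lay at 37 °C, where the deposited log2 fold changes of hda6 against Col-0 ran from -0.82 to -0.67, while those at 22 °C ran from -0.16 to -0.03. The root markers summed to 4.78 FPKM in hda6 and 3.03 FPKM in Col-0 at 37 °C. At 22 °C they summed to 22.9 FPKM in hda6 and 15.1 FPKM in Col-0. For the hda6 interaction 0 of the 3 root markers were called, with a median of -0.40. Of the 3 shoot markers, 3 were called higher and 0 lower for it, beside 2.26% and 3.32% of all tested genes, with a median of 0.26. On the FPKM scale, and when centred on expressed genes, 2 of these 3 were called higher. The part of root and shoot markers in these results was not tested.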

How the results depend on the processing

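On the FPKM scale, PIF7, PIF1 and HFR1 took the opposite sign for heat in Col-0 (-0.84, -0.84 and -0.99), as did PIF4 for heat in sant-null (-0.095). The values for that scale in this section are deposited log2 fold changes shifted by the median offset, not ratios of FPKM. Near 0, sign also changed on that scale for PIF5 and IAA29 in sant-null at 22 °C (0.022 and 0.013), for PIF4, PIF3 and IAA19 in hda6 at 22 °C (0.018, 0.023 and 0.047), and for PIF4 and PIF3 in sant-null against hda6 at 37 °C (0.033 and 0.037). Centring on expressed genes turned HFR1 for heat in Col-0 (-0.026), IAA19 in hda6 at 22 °C (0.015) and PIF3 in sant-null against hda6 at 37 °C (0.0024). On the FPKM scale 9 members were called lower for heat in Col-0, beside 72.5% of all genes. For heat in sant-null 0 were higher and 9 lower, beside 5.07% and 71.9%. For heat in hda6 0 were higher, beside 4.57%. On that scale 1 was also higher in sant-null at 22 °C, beside 12.9%. Further, 1 was lower in sant-null at 37 °C and 0 were lower in sant-null against hda6 at 22 °C. Centring, or testing only genes of at least 1 FPKM, also gave 1 higher in sant-null at 22 °C. At an adjusted p under 0.01, sant-null had 1 lower at 37 °C and 0 lower for the interaction, and sant-null against hda6 had 0 lower at 22 °C and 1 higher at 37 °C. That threshold also ended the calls of PIF5 in heated hda6 (adjusted p = 0.0198), of PIF3 for the hda6 interaction (0.0307) and of IAA19 and IAA29 for heat in hda6 (0.0287 and 0.0332). A further demand of at least 2-fold left 0 higher for heat in sant-null and 3 lower for heat in hda6. It left 0 calls in every contrast between genotypes and in both interactions. Where a count in this section has no share of all genes beside it, that share was not computed. Such a count shows only whether member calls held. Removing the low-value filter changed no member's call. No paired analysis was possible because each group has 1 FPKM value, with no value per library. For the same reason the replicate block and the removal of each replicate in turn were not run, so whether 1 library decides a value is unknown. Summing all errors adds nothing for sant-null against hda6. Low counts limit YUC8 and IAA29 at 37 °C.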

Other observations

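Over the 6 group means, the genes whose profiles lay nearest to PIF4 were RING1 (AT5G10380), AT4G19440 and AT5G54930, by Euclidean distance between log2(FPKM + 1) profiles centred on their own mean. The distances were 0.0645, 0.0963 and 0.107 among 17480 genes with at least 1 FPKM in some group. RING1 had 1.03 FPKM in sant-null, 1.01 in hda6 and 1.20 in Col-0 at 37 °C, and 1.22, 0.940 and 0.965 FPKM in the same genotypes at 22 °C. Nearest to PHYB were PUT5, AT2G18940 and DRB2, at distances of 0.0718 to 0.0817, and nearest to YUC8 were GAUT9, AT5G25100 and KCS4, at 0.0371 to 0.0664. With a pseudocount of 0.1 in place of 1, the 3 nearest genes shared 1 with those above for PIF4, 0 for PHYB and 0 for YUC8. With 6 points and no error per point, these neighbours are a description of group means.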
